A study of Mus musculus with 3 samples.

Results

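The Tie system was examined in endothelial cells of the mouse embryonic kidney at E15.5 through 6 genes: the receptors Tek (Tie2) and Tie1, the angiopoietin ligands Angpt1, Angpt2 and Angpt4, and Ptprb, which encodes the phosphatase VE-PTP. They were chosen by name, as genes with a probe set annotated to that symbol alone, and all 6 were found among the 19938 named genes of the array, each with 1 probe set. The series holds a single group of 3 arrays. Each array was hybridized with RNA from GFP-positive cells sorted by flow cytometry after trypsin digestion of a pool of 4 to 5 kidneys from CD-1 embryos at 15.5 dpc carrying the transgene Tg(TIE2GFP)287Sato. The labels name no treatment, and no other genotype, stage or cell type was analysed here. The transgene places GFP under the Tie2 promoter, so Tek is the gene whose control region selected the cells, and its level is not independent of the sort. Blood cells can use the same promoter and were not removed by any step that the labels describe. Nothing in the labels ties a pool to a litter, and the p-values therefore reflect array-to-array spread, which may be technical.

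Tek is a receptor tyrosine kinase of endothelium. Angpt1, secreted mainly by the cells around vessels, activates it and favours stable vessels, whereas Angpt2 is made mainly by endothelium at sites of remodelling and can act as an antagonist. Angpt4 is a further activating ligand. Tie1 has no settled ligand of its own and modulates Tek within receptor complexes, and VE-PTP removes phosphate from Tek and from partners of VE-cadherin at cell junctions.

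The start regions of 3 of the 6 genes were matched in RefSeq (GRCm38.p6), as windows running from 250 bases before to 50 bases after the start of transcription. The Tek window is shown because Tek's control region drives the sorting reporter, the Tie1 window because the 3 array values of Tie1 followed those of Tek, and the Angpt4 window as that of a ligand. Capitals mark exact matches on either strand to AGGAAG (a form of the ETS factor motif), AGATAA (a form of the GATA factor motif) and GTAAACA (a form of the forkhead factor motif). None of these matches overlapped another. The windows lie at chr4:94739039-94739338 on the plus strand (Tek), chr4:118489800-118490099 on the minus strand (Tie1) and chr2:151910957-151911256 on the plus strand (Angpt4), each written 5′ to 3′ along its gene.
Tek: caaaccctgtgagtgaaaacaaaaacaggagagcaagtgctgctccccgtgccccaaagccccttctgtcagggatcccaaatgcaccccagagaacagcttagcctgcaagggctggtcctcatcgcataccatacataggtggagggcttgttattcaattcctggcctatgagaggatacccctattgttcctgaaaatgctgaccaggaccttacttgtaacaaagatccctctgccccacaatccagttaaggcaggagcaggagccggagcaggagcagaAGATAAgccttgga
Tie1: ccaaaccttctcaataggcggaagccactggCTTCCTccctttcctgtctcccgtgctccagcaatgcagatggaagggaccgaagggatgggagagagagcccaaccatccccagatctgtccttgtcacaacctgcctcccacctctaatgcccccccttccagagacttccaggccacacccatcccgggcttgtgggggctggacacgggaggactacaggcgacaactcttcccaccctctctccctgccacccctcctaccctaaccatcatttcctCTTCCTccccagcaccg
Angpt4: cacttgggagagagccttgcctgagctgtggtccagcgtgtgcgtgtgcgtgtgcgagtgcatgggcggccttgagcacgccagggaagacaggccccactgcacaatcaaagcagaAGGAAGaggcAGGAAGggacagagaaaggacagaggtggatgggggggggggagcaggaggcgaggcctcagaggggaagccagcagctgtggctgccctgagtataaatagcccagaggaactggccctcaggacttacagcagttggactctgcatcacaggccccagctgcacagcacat

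Within these windows Tek held 1 match to AGATAA and none to AGGAAG, while Tie1 held 2 to AGGAAG and none to AGATAA. Angpt4 also held 2 matches to AGGAAG. Of 32851 RefSeq windows of this length, 35.4% held AGGAAG, 11.2% held AGATAA and 3.6% held GTAAACA, which was in none of the 3 windows. Other forms of these motifs were not counted, and a window without a match may hold them. Such matches describe the letters of the window and show no binding.

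Values are the deposited log2 signals, and the study's filter on low raw signal, 100 (6.64 on the log2 scale), served as the level against which each gene was tested. Median signals of the 3 arrays were 6.50, 6.51 and 6.55. Replicate 3 stood apart from the others: the SD of its values over all probe sets was 1.84, against 2.08 and 2.06 in replicates 1 and 2, and its olfactory receptor genes were brighter. These 1027 genes, taken as genes that kidney endothelium does not use, had medians of 4.76, 4.80 and 5.15 and 95th percentiles of 6.39, 6.44 and 6.69 in replicates 1, 2 and 3. Identity of the sorted cells was checked with 18 endothelial genes, and 14 of them passed above the level (0 passed below), at a median of 9.51 against 6.67 over all named genes. Among probe sets, 55.9% had an identical value in at least 2 arrays and 19.7% had it in all 3, and an SD of 0.00 below is not a measure of biological constancy. The test against the level depends on this spread as well as on the mean. Adam10, at a mean of 8.94 (SD 1.06), did not pass, whereas Dok2, at 6.68 (SD 0.00), did. Genes said not to pass are thus not all dim. Adam10, Jup, Nos3, Pdpn and Kit did pass the 95th percentile of olfactory receptor genes.

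Both Tie receptors and the phosphatase were above the level, and Angpt1 and Angpt2 were below it. In limma, 3 of the 6 genes passed the test above the level and 2 the test below it, while over all named genes 41.6% were above and 41.6% below. With a common spread, averaged over the whole table in place of the spread of each probe set (the pooled spread), 3 were still above but only 1, Angpt1, was below, beside 36.0% and 32.5% of named genes. Results for the receptors are given first, then the phosphatase and the ligands.

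Tek measured 11.12, 10.97 and 10.13 log2 in replicates 1, 2 and 3, which is 2230, 2002 and 1121 on the linear scale. Replicates 1 and 2 lay close together and replicate 3 lay lowest, though still far over the level. The mean of 10.74 ± 0.53 (SD, n = 3) was 17.1-fold the level (limma adjusted p = 0.0047; 95% confidence interval 9.71 to 11.77 log2). No olfactory receptor gene was brighter than Tek in any array, and Tek exceeded 98.1%, 98.0% and 96.7% of all named genes in replicates 1, 2 and 3.

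Tie1 measured 9.02, 8.83 and 8.02 log2, again with replicate 3 lowest. Its mean of 8.62 ± 0.53 (SD, n = 3) was 3.94-fold the level (limma adjusted p = 0.0192; interval 7.59 to 9.65 log2). Tie1 lay over 88.6%, 87.8% and 82.8% of named genes. The number of olfactory receptor genes brighter than Tie1 was 0 in replicate 1, 1 in replicate 2 and 4 in replicate 3.

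Ptprb measured 9.79 and 9.86 log2 in replicates 1 and 2 and 8.30 in replicate 3, the widest spread of the 6 genes. The SD of 0.88 was larger than that of 98.2% of named genes, against 90.5% for Tek and for Tie1. The mean of 9.32 log2 (n = 3) was 6.38-fold the level (limma adjusted p = 0.0283; interval 7.62 to 11.02 log2). Ptprb lay over 93.5%, 94.4% and 86.4% of named genes, and 2 olfactory receptor genes were brighter in replicate 3 and none in replicates 1 and 2.

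These 3 calls against the level rested on replicates 1 and 2 both being present. Without replicate 1, and likewise without replicate 2, limma called 0 of the 6 genes above the level, with 2 at an unadjusted p under 0.05, and the adjusted p of Tek was 0.051 and 0.0615. Fewer genes of the whole table were called then as well. Of 19938 named genes, 5531 were above without replicate 1 and 5051 without replicate 2, against 8295 with all 3 arrays. With the pooled spread, Tek, Tie1 and Ptprb were above the level whichever array was left out, and without replicate 3 limma called all 3 as well.

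**Figure D1:**
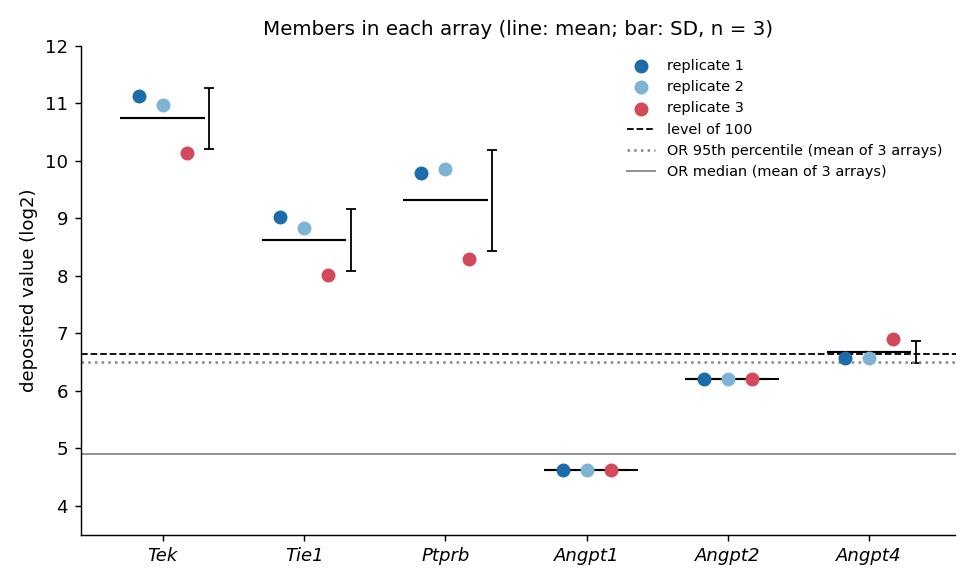
Deposited log2 values (vertical axis) of the 6 genes in replicates 1, 2 and 3 (points), with the mean as a line and the SD as a bar (n = 3), the level of 100 as a dashed line and the median and 95th percentile of olfactory receptor (OR) genes, averaged over arrays, in grey. Tek, Tie1 and Ptprb lie over the level in every array with replicate 3 lowest, while Angpt1 and Angpt2 lie under it.

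Angpt1 measured 4.62 log2 in all 3 arrays, or 24.6 on the linear scale, 0.246 of the level (SD 0.00, n = 3; limma adjusted p = 1.38e-05 below the level). It lay among the olfactory receptor genes, of which 567, 587 and 732 of 1027 were brighter in replicates 1, 2 and 3. Its signal exceeded that of 8.82%, 8.43% and 5.05% of named genes. The probe set of Angpt1 thus gave no signal over that of genes taken as unused.

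Angpt2 measured 6.21 log2 in all 3 arrays, or 74.1 on the linear scale (SD 0.00, n = 3; limma adjusted p = 7.76e-05 below the level). It was not below the level with the pooled spread (adjusted p = 0.149). Angpt2 was brighter than most of the background: 66, 73 and 131 olfactory receptor genes lay over it, so that it was brighter than 93.6%, 92.9% and 87.2% of those genes. It did not pass the 95th percentile of the background in any array.

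Angpt4 measured 6.57, 6.57 and 6.90 log2, and replicate 3 was the highest. The mean of 6.68 ± 0.19 (SD, n = 3) was on neither side of the level (limma adjusted p = 0.793 above). In replicates 1, 2 and 3 there were 35, 38 and 37 olfactory receptor genes brighter than Angpt4, so that it was brighter than 96.6%, 96.3% and 96.4% of the background. Without replicate 3 the remaining values were equal and limma placed Angpt4 below the level, by 0.07 log2.

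Distances from the background were then taken within each array, which removes a shift common to all probe sets of an array. Probe sets differ in affinity, and this enters every distance between different genes. Tek lay 6.36, 6.16 and 4.99 log2 over the olfactory receptor median of its array, a mean of 5.84 ± 0.74 (SD, n = 3). Tie1 lay 4.25, 4.03 and 2.87 over it (3.72 ± 0.74) and Ptprb 5.02, 5.06 and 3.16 (4.41 ± 1.09). For all 3 genes replicate 3 was nearest to the background.

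The ligands lay much closer to it. Angpt4 was 1.81, 1.77 and 1.76 log2 over the olfactory receptor median (1.78 ± 0.03, SD, n = 3), so that its higher value in replicate 3 was matched by a brighter background there. Angpt2 was 1.45, 1.41 and 1.07 over it (1.31 ± 0.21). Angpt1 was 0.14, 0.18 and 0.52 under it, a mean difference of -0.28 ± 0.21 log2.

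Against the 95th percentile of olfactory receptor genes in each array, limma called Tek (4.23 log2 over it, adjusted p = 0.000785), Tie1 (2.11, 0.00505) and Ptprb (2.81, 0.00653) above the background. Angpt4 was 0.18 log2 over that limit on average and did not pass (adjusted p = 0.158), and Angpt1 and Angpt2 were under it. Thus 3 of the 6 genes passed, while 42.7% of all named genes did (38.6% with the pooled spread, which also called these 3), and 22 of the 1027 olfactory receptor genes did. Leaving out any single array kept Tek, Tie1 and Ptprb above this background. Without replicate 1 or replicate 2, however, limma and the pooled spread passed the same number of named genes, 6081 and 6069. The spread of each gene thus hardly entered those 2 fits, and they do not test the calls against it. Against the olfactory receptor median in place of the 95th percentile, Angpt2 and Angpt4 passed as well, and Angpt1 did not. Most genes passed that lower limit, 16961 of the 19938 named genes.

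**Figure D2:**
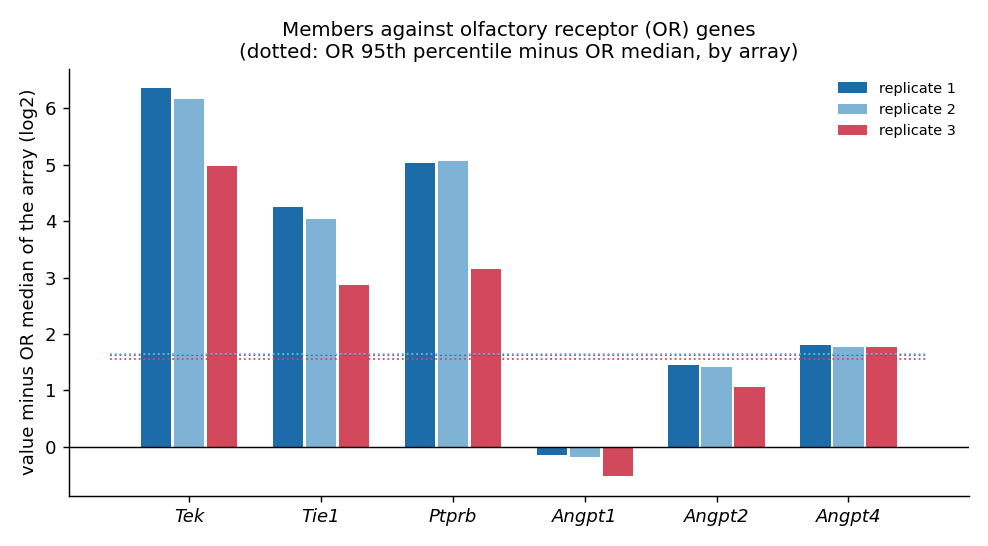
Bars give each gene's log2 value minus the median of 1027 olfactory receptor (OR) genes in the same array, for replicates 1, 2 and 3, and dotted lines give the OR 95th percentile on the same scale. Tek, Tie1 and Ptprb stand far over the dotted lines, Angpt4 just over them, Angpt2 under them and Angpt1 under 0.

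The difference of replicate 3 from the mean of replicates 1 and 2 was -0.91 log2 for both Tek and Tie1 and -1.52 for Ptprb. It was 0.00 for Angpt1 and Angpt2 and 0.33 for Angpt4. The median of all named genes was 0.00. Genes of comparable brightness also tended to be lower in replicate 3, with a median difference of -0.27 for the 433 genes whose mean lay within 0.5 log2 of Tek, -0.37 for 2009 genes around Tie1 and -0.42 for 1185 genes around Ptprb. A still lower difference was found for 11.5%, 20.5% and 4.64% of those genes. Around Angpt1, Angpt2 and Angpt4 the median difference of genes of comparable brightness was 0.29, 0.01 and 0.00. Of those genes 2.58%, 12.9% and 85.3% had a lower difference than the ligand. After quantile normalization of the 3 arrays, which gives them equal spreads, the difference was -0.63 for Tek, -0.54 for Tie1 and -1.12 for Ptprb. For the ligands it was then -0.37 (Angpt1), -0.10 (Angpt2) and 0.35 (Angpt4).

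Other endothelial genes were lower in replicate 3 in the same way. All 18 of the endothelial genes had their lowest value there, against 28.2% of all named genes, where a lowest value shared with another array did not count. The median difference of the endothelial genes was -1.05 log2 (from -2.04 to -0.39), and -0.67 after quantile normalization. Pecam1 (10.49, 10.37 and 9.40), the VE-cadherin gene Cdh5 (11.57, 11.23 and 10.43), the VEGF receptor gene Kdr (10.69, 10.17 and 8.82) and Flt1 (10.06, 10.14 and 8.76), another VEGF receptor gene, illustrate it. All 8 ETS factors of endothelium also had their lowest value in replicate 3, with a median difference of -1.09 (-0.79 after quantile normalization). These include Ets1 (9.05, 8.52 and 8.25), Ets2 (10.29, 9.40 and 8.22) and, also on the endothelial list, Erg (9.85, 9.61 and 8.67) and Fli1 (10.48, 10.29 and 8.99). In a sorted population, fewer endothelial cells and less RNA of these genes per cell cannot be told apart. Values of that array also had a narrower spread (SD 1.84 against 2.08 and 2.06) and a brighter background. A technical part in the lower values was not tested.

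Most of the measured macrophage, platelet and renal stroma markers were highest in that array. The olfactory receptor median was also higher there, at 5.15 against 4.76 and 4.80 in replicates 1 and 2. Of 10 macrophage genes, 7 had their highest value in replicate 3, against 37.9% of all named genes, with list medians of 6.42, 7.34 and 7.76 log2 in replicates 1, 2 and 3. The receptor genes Csf1r (6.45, 6.98 and 7.41) and Mrc1 (6.51, 9.08 and 9.97) were among them. Cd68 (7.30, 8.95 and 8.82), Adgre1 (5.62, 6.74 and 6.42) and C1qa (6.40, 6.88 and 6.42) were highest in replicate 2 and lowest in replicate 1. Itgam (4.78, 4.78 and 5.06) was below the level. Of 4 measured platelet genes 3 were highest in replicate 3, Pf4 at 9.27, 9.34 and 10.63 and Itga2b at 6.81, 6.81 and 7.27 among them. Gp9 and Ppbp were below the level, and Ppbp (6.35, 6.35 and 6.18) was lowest in replicate 3. Of 9 renal stroma genes 6 were highest in replicate 3 and 1 was lowest, with a median difference of 0.33 log2 from the mean of replicates 1 and 2, against 0.31 for the platelet genes and 0.67 for the macrophage genes. The stroma and platelet differences were no larger than the rise of the olfactory receptor median in replicate 3. The part of these cells in the lower Tek, Tie1 and Ptprb of replicate 3 was not tested.

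Set against the endothelial list within each array, Tek and Tie1 were far steadier. Tek minus the median of the 18 endothelial genes was 1.17, 1.19 and 1.36 log2, an SD of 0.10 in place of 0.53, and Tie1 minus that median was -0.94, -0.94 and -0.76, again with an SD of 0.10. For Ptprb the values were -0.17, 0.09 and -0.47, with an SD of 0.28 in place of 0.88. The endothelial genes themselves, each set against the median of the others, had SDs from 0.05 to 0.54 with a median of 0.24. This scale was chosen after the values had been seen.

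**Figure D3:**
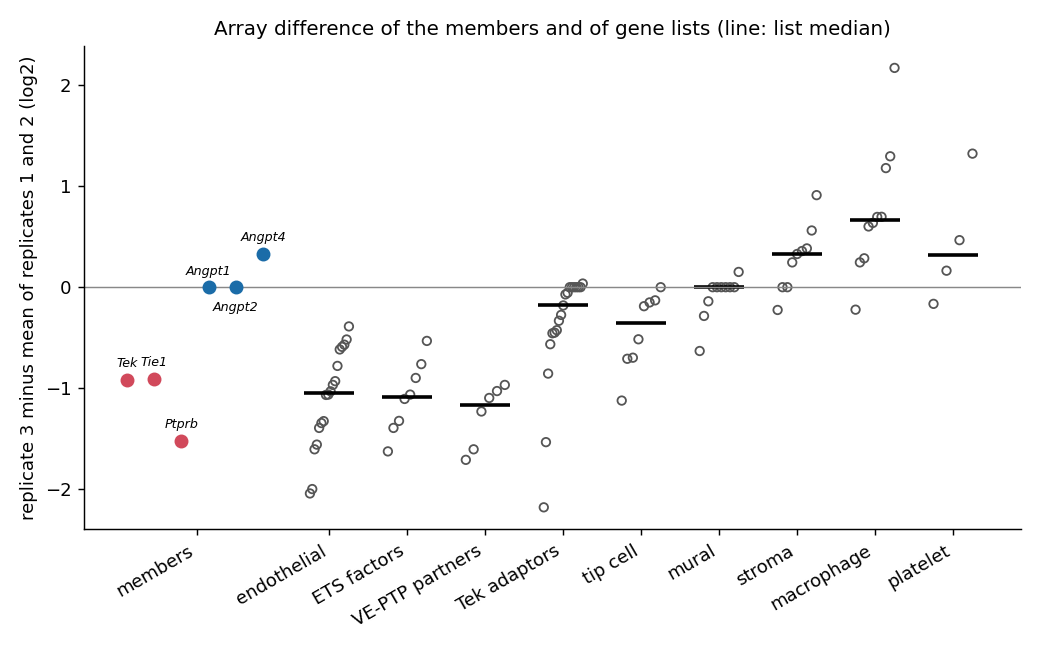
Replicate 3 minus the mean of replicates 1 and 2 (log2, vertical axis) for the 6 genes (filled points, receptors and phosphatase in red, ligands in blue) and for the genes of 9 lists (open circles, with the list median as a line). Tek, Tie1 and Ptprb lie at -0.91, -0.91 and -1.52, within the span of the endothelial genes, whose median is -1.05, while the macrophage median is 0.67.

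The genes with array values most like those of Tek were ranked by the root mean square difference of the 3 values after centring each gene on its mean, over 10097 genes with a mean of at least the level. Tie1 was the second nearest, at 0.011 log2. The other 4 of the nearest 5 were Snx17 (a sorting nexin, 0.011), Crbn (cereblon, 0.012), Ttc37 (0.013) and Acbd3 (0.014). With 3 arrays such likeness is common, and 589 genes lay within 0.1 log2 of Tek. For Ptprb the nearest gene was the kinase gene Akt2 (0.011), followed by Chm, Pcdhb17, Usp8 and Zbtb41 (0.028 to 0.032), and 105 genes lay within 0.1. Ptprb lay 0.302 from Tek, and ranked 3149th among the genes by nearness to it.

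Other receptor-type tyrosine phosphatases were divided. Of 12 measured, 7 were above the level (58.3%) and 5 below, with a median of 6.91 log2 against 6.67 for all named genes. Beside this and each list count that follows stand the shares of all named genes, 41.6% above and 41.6% below. The part of the phosphatases below was near that share. The relatives of Ptprb that share its single phosphatase domain and fibronectin-type ectodomain, Ptprj (6.27, 6.27 and 6.31), Ptpro (5.65, 5.65 and 6.27), Ptprh (5.82, 5.85 and 5.95) and Ptprq (5.48, 5.48 and 5.82), were all below the level. Ptpre at 6.01 ± 0.25 (SD, n = 3) was below as well. Ptprm (8.90 ± 0.81), Ptprk (8.90 ± 0.13), Ptprg (8.41 ± 0.50) and Ptpra (8.32 ± 0.16) were above, as were Ptprd, Ptprs and Ptprf between 6.89 and 7.67.

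Relatives of the ligands lay on both sides of the level. Of 6 measured genes of angiopoietin-like and matrix proteins 2 were above the level, 3 below and 1 on neither side, at a median of 6.18 log2. Angptl1 (5.81 ± 0.00), Angptl7 (6.02 ± 0.21) and Svep1 (6.15 ± 0.05), a large matrix protein, were below, and Angptl4 (6.22 ± 0.24) did not pass (SD, n = 3). Angptl6 at 6.90 ± 0.09 and Olfml3, an olfactomedin-like matrix protein, at 7.34 ± 0.14 were above. Of 5 integrin genes reported as angiopoietin partners, 4 were above, among them Itgav (7.97 ± 0.27), Itgb1 (10.91 ± 0.56) and Itga5 (8.17 ± 0.32), and Itgb3 was below at 5.62 ± 0.03.

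Downstream of the receptor, 15 of 19 measured adaptor and kinase genes were above the level, 2 below and 2 on neither side, at a median of 8.10 log2. The docking protein gene Dok2 lay just above at 6.68 in all 3 arrays but did not pass the background limit. The adaptor gene Grb2 was at 8.15 ± 0.00, whereas the related Grb7 (6.19 ± 0.00) and Grb14 (6.49 ± 0.00) were below the level (SD, n = 3). Shc1 (8.81, 8.44 and 6.44) and Tnip2 (6.89 ± 0.21) did not pass. The phosphoinositide kinase genes Pik3r1 (8.42 ± 0.33) and Pik3ca (8.35 ± 0.29) and the kinase gene Akt1 (7.82 ± 0.00), which carry the survival signal of Tek, were above, and so were the small GTPase genes Rac1 (10.87 ± 0.27) and Rhoa (11.74 ± 0.28).

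Among FOXO factors and outputs of the pathway 6 of 8 were above the level and none below, at a median of 8.25 log2. Foxo1, which Tek signalling restrains and which can activate Angpt2, was at 8.82 ± 0.00, and Foxo3 at 7.51 ± 0.00 (SD, n = 3). Foxo4 (6.54 ± 0.27) and the nitric oxide synthase gene Nos3 (7.53 ± 0.39) did not pass, while Klf2, a flow-responsive factor, was at 8.77 ± 0.04.

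Partners of VE-PTP at junctions stood high. The level test was passed above by 5 of 6 genes and below by 0, with a median of 9.67 log2, and all 6 had their lowest value in replicate 3. Besides Cdh5 and Kdr these include beta-catenin Ctnnb1 (10.25, 10.01 and 9.03), p120-catenin Ctnnd1 (9.57 ± 0.71) and Plcg1 (8.51 ± 0.59), while plakoglobin Jup (9.20, 8.59 and 7.18) did not pass. Of 5 genes of proteases that can release receptor ectodomains and their inhibitors, 4 were above, among them Adam17 (8.58 ± 0.30), Mmp14 (8.03 ± 0.39), Timp2 (6.92 ± 0.01) and Timp3 (9.13 ± 0.60), and Adam10 (8.94 ± 1.06) did not pass (SD, n = 3).

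**Figure D4:**
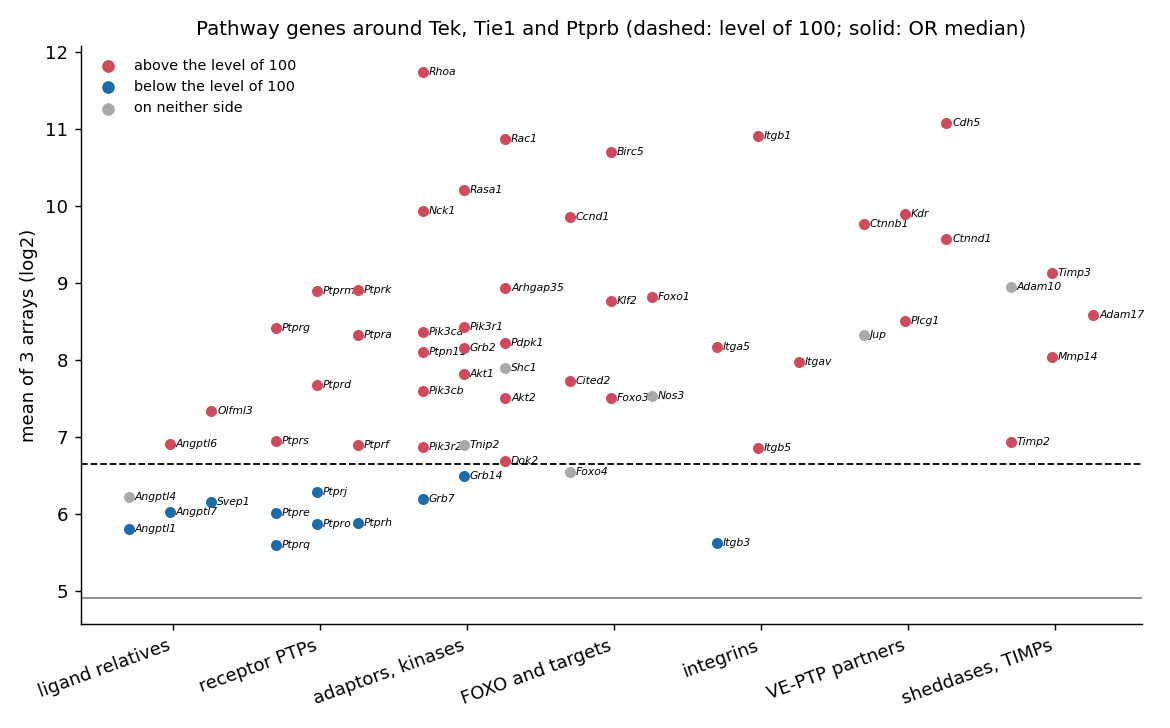
Mean log2 value over 3 arrays (vertical axis) of each measured pathway gene, by role, coloured by its side of the level of 100 (dashed line), with the olfactory receptor (OR) median as a solid line. The VE-PTP partners lie between 8.32 and 11.08. By the test, 3 of 6 ligand relatives and 5 of 12 receptor phosphatases (PTPs) were below the level, beside 41.6% of all named genes. Angptl4, at 6.22, also lies under the dashed line but did not pass.

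Most genes of mural cells, a known source of Angpt1, were below the level. Of 10 mural genes 7 were below the level and 1 above, beside 41.6% of all named genes below and 41.6% above. Pdgfrb (5.87 ± 0.00), Rgs5 (5.89 ± 0.00) and Cspg4 (6.17 ± 0.00) were below and Acta2 (7.21 ± 0.00) was above (SD, n = 3). Per-array medians of the list were 6.35, 6.35 and 6.23 log2. Of 9 renal stroma genes, 5 passed above (55.6%, beside 41.6% of all named genes) and 2 below the level, and most were highest in replicate 3. Foxd1 (7.46, 7.68 and 8.48) and Meis1 (6.97 ± 0.13) were above, Tbx18 (5.00 ± 0.22) was below and Pdgfra (6.41 ± 0.32) did not pass. Of 6 measured podocyte genes 3 were above, Podxl (8.04 ± 0.18), Cdkn1c and Vegfa. Synpo (5.99 ± 0.10) and Ptpro were below, and nephrin Nphs1 at 6.46 ± 0.23 did not pass.

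Tip cells at growing vessel ends are known for Angpt2. Of 8 tip cell genes, 4 were above the level and 1 below, beside 41.6% of all named genes above and 41.6% below. Whether tip cells were present in the pools was not tested. Apln (7.49 ± 0.00), Esm1 (8.56 ± 0.30), Cxcr4 (8.48 ± 0.54) and Pdgfb (7.52 ± 0.08) were above (SD, n = 3). The Notch ligand gene Dll4 (7.71, 7.71 and 6.59) did not pass, and Adm was below at 6.38 ± 0.11. Lymphatic endothelium, where Angpt2 is also used, had 2 of 5 measured genes above (40.0%, again near the share of all named genes) and none below. Lyve1 at 8.50 ± 0.25 and Itga9 at 8.20 ± 0.37 were above, and Prox1 (6.23 ± 0.37), Pdpn (6.90 ± 0.26) and Flt4 (7.71 ± 0.77) did not pass.

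Of 8 genes of haematopoietic progenitors, cells that can use Tek, 3 were above the level (37.5%, beside 41.6% of all named genes) and 2 below. Gata2 (7.11 ± 0.00), Tal1 (7.66 ± 0.00) and Lyl1 (7.55 ± 0.10) were above and Myb (6.34 ± 0.00) was below (SD, n = 3). Ptprc (5.96, 6.06 and 6.88) and Runx1 (6.15 ± 0.41) did not pass. The receptor gene Kit (9.28, 8.86 and 7.55) was lowest in replicate 3 like the endothelial genes. Kit did not pass the level test either, but it lay over the level in every array and passed the background limit. Of 7 measured erythroid genes 4 were above and 2 below, among them Hbb-y at 9.23 ± 0.57 above. Nephron progenitors had 4 of 6 genes above and 2 below, with Six2 at 7.37 ± 0.12, and the ureteric bud 3 of 6 above and 2 below, with Ret below at 6.15 ± 0.20. The part of any of these cells in the levels of the 6 genes was not tested.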

How the data were processed

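Endothelial RNA from 3 pools was amplified in a single round (NuGEN WT-Ovation Pico) and measured on Affymetrix Mouse Gene 1.0 ST arrays (1 for each pool). The authors deposited a log2 value for each of 35557 probe sets. Affymetrix Expression Console is the tool given in the submitters' processing notes, and its version, algorithm and genome build are not stated there. In the study, array data were RMA normalized within GeneSpring, and whether the deposited table had that treatment is not said. The number of arrays limits the precision. Replicates carry the number of the sample title.

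Deposited values were used as they stand. Of the probe sets, 21789 had exactly 1 symbol in the platform annotation, 1621 had several and were not named, and 12147 were unnamed here. Symbols were updated through RefSeq (GRCm38.p6) gene identifiers, where 21698 matched. Genes with several probe sets were given their mean log2 value.

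Each probe set's mean was tested with limma 3.58.1 (R 4.3.3) (an intercept alone, with eBayes, tested in 1 direction at a time) against log2(100), the study's low-signal filter, and, after subtracting the 95th percentile of olfactory receptor genes in each array, against 0. P-values were Benjamini-Hochberg adjusted over all probe sets, with a threshold of 0.05. For a gene to be above, 1 passing probe set sufficed, and to be below, every probe set had to pass. The study's between-group tests need other groups. The fit was tested on simulated data with normal spreads and no equal values. That test does not cover the probe sets with identical values in several arrays. Alternatives were each array left out, a pooled spread, quantile normalization, equal olfactory receptor medians, a filter on low probe sets, levels of 64 and 200, and other background limits and genes. Leaving out an array together with the pooled spread, and the scale set by endothelial genes, were added after the data were seen.

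The genes and lists were chosen with earlier results of these data known. Named in the text are the 6 genes, the first 4 measured genes of a list (fewer for epithelial and erythroid lists), list genes whose call went against their list, the 5 genes nearest in array values to Tek and to Ptprb, and others chosen after their values were seen. Protein sequences were not analysed here. Calculations used Python 3.11.15, numpy 2.4.6, pandas 2.3.3 and matplotlib 3.10.9.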

Additional observations from a re-analysis of the deposited data

How the results depend on the processing

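Of the 6 genes, 3 were above the level of 100, 2 below it and 3 above the 95th percentile of olfactory receptor genes. With a level of 200, 1 gene, Tek, was above, beside 3221 of 19938 named genes. With 64 there were 5 above and 1 below, beside 12325 and 4411 named genes. Leaving out single arrays gave 0 to 3 genes above and 1 to 3 below, the pooled spread included, and with that spread and all arrays 1 was below. Against the median of olfactory receptor genes 5 passed, as did 16961 of 19938 named genes. Angpt2 was 0.21 log2 over a level of 64 in place of 0.43 under 100. Angpt4, on neither side of 100, was at -0.96 log2 from a level of 200 and, without replicate 3, at -0.07 from 100, both below (-0.071 to 0.095 over the arrays left out). Quantile normalization, equal olfactory receptor medians and the filter on low probe sets left each count of calls at its value, where a count below the level was not taken with the filter. The 99th percentile and the background with vomeronasal receptor genes also gave 3. The causes were not tested. Exactly equal values and the small number of arrays limit what the spreads can show. No paired analysis was possible because the series holds a single group.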
